A study of Mus musculus with 14 samples.

Results

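Gallbladder organoids are hollow epithelial structures grown in a gel from the lining of the gallbladder. The comparison described here sets gallbladder organoids called differentiated against undifferentiated gallbladder organoids, and asks what changed in their RNA after a set of niche factors was taken away. Its members are the 2 arrays titled as differentiated gallbladder organoids and the 2 titled as gallbladder organoids, of 14 arrays in the series, and every gene with an unambiguous symbol was measured, 19938 in all. The material came from C57BL/6 mice. The labels give neither the age of the mice nor whether replicates came from separate mice or cultures. The p-values below therefore measure the spread between replicate arrays, pooled over all 14 arrays of the series, and that spread may be technical.

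Both groups were grown in Matrigel in AdDMEM/F12 medium with B27, N2, N-acetylcysteine, EGF, FGF10 and HGF. Undifferentiated organoids also received nicotinamide and conditioned media that supplied R-spondin 1 and noggin. Differentiated organoids spent 2 weeks in medium from which R-spondin 1, noggin and nicotinamide were left out. The 3 were withdrawn together, so their separate effects cannot be told apart. Effects of anything else that the conditioned media carried cannot be told apart from theirs either. The other groups of the series, also with 2 arrays each, were organoids of liver and small intestine and tissue of gallbladder, liver and small intestine.

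R-spondins bind the receptors Lgr4, Lgr5 and Lgr6 and clear the ubiquitin ligases Rnf43 and Znrf3 from the cell surface, which leaves more Wnt receptors in place. Noggin binds bone morphogenetic proteins (BMPs) and keeps them from their receptors, and nicotinamide is a precursor of NAD and a common additive of organoid media. The gallbladder is lined by a columnar epithelium of cholangiocyte kin that concentrates bile by moving salt and water, secretes mucus, and holds scattered tuft cells, which sense chemicals through a taste-type signalling chain.

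Replicates correlated across genes at r = 0.998 in both groups, where genes are not independent replicates, and a gene's SD between replicates, pooled over genes, was 0.0952 log2 units in differentiated and 0.0985 in undifferentiated organoids. Array medians lay between 7.12 and 7.44 over the 14 arrays. All 4 organoid arrays were epithelial. The median level of 5 epithelial markers was 13.27 and 13.25 in differentiated and 13.23 on each undifferentiated array, and none of the 5 was called. Levels of 6 smooth muscle markers had medians between 6.89 and 7.03 on these arrays, against 13.17 and 12.65 in gallbladder tissue, and 0 of 6 were called. Xist was high on all 4 arrays (11.60 to 12.24) and the Y-linked Eif2s3y low (3.90 to 4.004), so both groups showed the same pattern in these sex-linked genes. The 2 gallbladder tissue arrays did not (Xist at 13.51 and 5.46).

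Values are log2 RMA signals, so a difference of 1 is a doubling of the signal. Calls were made where limma's 2-sided moderated test gave an adjusted p below 0.05, with Benjamini-Hochberg adjustment over all 19938 genes, and all adjusted p-values below come from that fit. After withdrawal 559 genes were called higher (2.8% of those tested) and 384 lower (1.93%), 4.73% in all, and across the genes tested the median of the differences was -0.04. The spread in the fit is estimated over all 7 groups, and tissue arrays varied more than organoid arrays. Of the 943 calls, 295 (1.48% of genes) also passed when each of the 4 arrays was left out in turn, 197 higher (0.988%) and 98 lower (0.492%). Such calls are said to hold below. Results with an array left out are given in the order differentiated replicates 1 and 2, undifferentiated replicates 1 and 2. The differences of 99 called genes were 2 log2 units or more, 76 of them higher and 23 lower. At an unadjusted p under 0.05, 3311 of the 19938 genes differed in either direction, and counts at that threshold below are to be read against this.

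**Figure D1:**
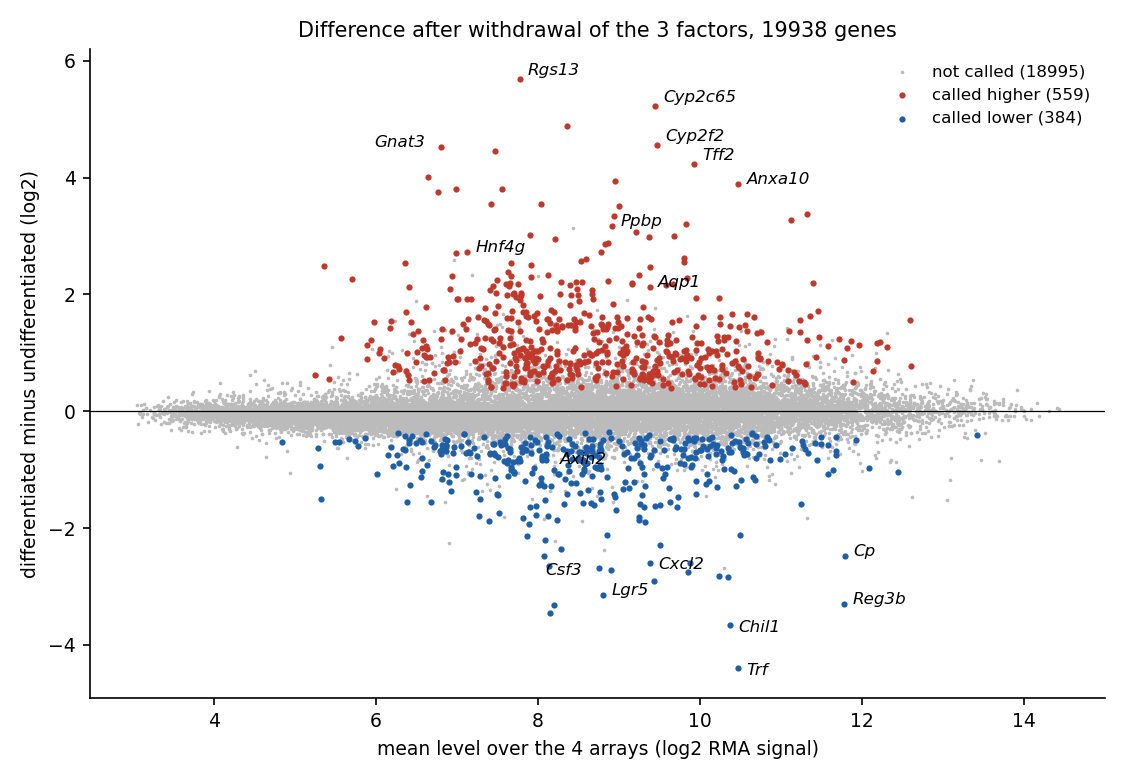
Difference between the group means (log2, differentiated minus undifferentiated, vertical axis) against the mean level over the 4 arrays (log2 RMA signal, horizontal axis) for 19938 genes. Red points are the 559 genes called higher, blue points the 384 called lower and grey points the rest, and the called genes reach further above 0 (Rgs13, 5.69) than below it (Trf, -4.40).

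Among the calls that held, those that rose most were Rgs13, Cyp2c65, Rasgrp3, Cyp2f2 and Gnat3. All but Rasgrp3 belong to the tuft cell and cytochrome P450 lists described below. Rasgrp3, which loads Ras proteins with GTP, read 10.83 and 10.77 on the differentiated arrays and 5.75 and 6.07 on the undifferentiated arrays. The groups lay far apart, and Rasgrp3 rose by 4.89 ± 0.65 log2 units (SE, adjusted p = 0.00197). Its level before withdrawal lay close to that in small intestine organoids (5.78 and 5.99) and may be at the floor of the probes, so no fold is given. Igfbp5, a secreted binder of insulin-like growth factors, rose from 6.90 and 7.04 to 10.68 and 11.16, by 3.95 ± 0.21 (adjusted p = 7.43e-06). Cltrn (collectrin), which brings amino acid carriers to the cell surface, rose from 5.54 and 5.75 to 8.94 and 9.45, by 3.55 ± 0.16 (adjusted p = 4.36e-06). Bche, which encodes butyrylcholinesterase, rose by 3.34 ± 0.15 (adjusted p = 4.36e-06). Fabp7, a fatty acid binding protein best known from brain, rose by 3.55. It was the 1 called of 10 genes of its family (10%, against 2.8% of all genes), and the other 9 were not. Pzp, a broad proteinase trap of the alpha-2-macroglobulin family, rose by 3.21, Srgn, the proteoglycan core serglycin, by 2.95, and Gucy1a2, a subunit of the nitric oxide receptor, by 2.88. Prl2c5, a member of the prolactin family otherwise known from placenta, rose by 4.01 and was the only 1 of 20 family members called (5%, against 2.8%). Prl2c5, Serpinb9b (3.51) and Clec2e (3.81) have close relatives in the mouse genome that could share probes, so which copy rose is uncertain. The same holds for Slfn2, Ugt2a3 and Gstm1 below.

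**Figure D2:**
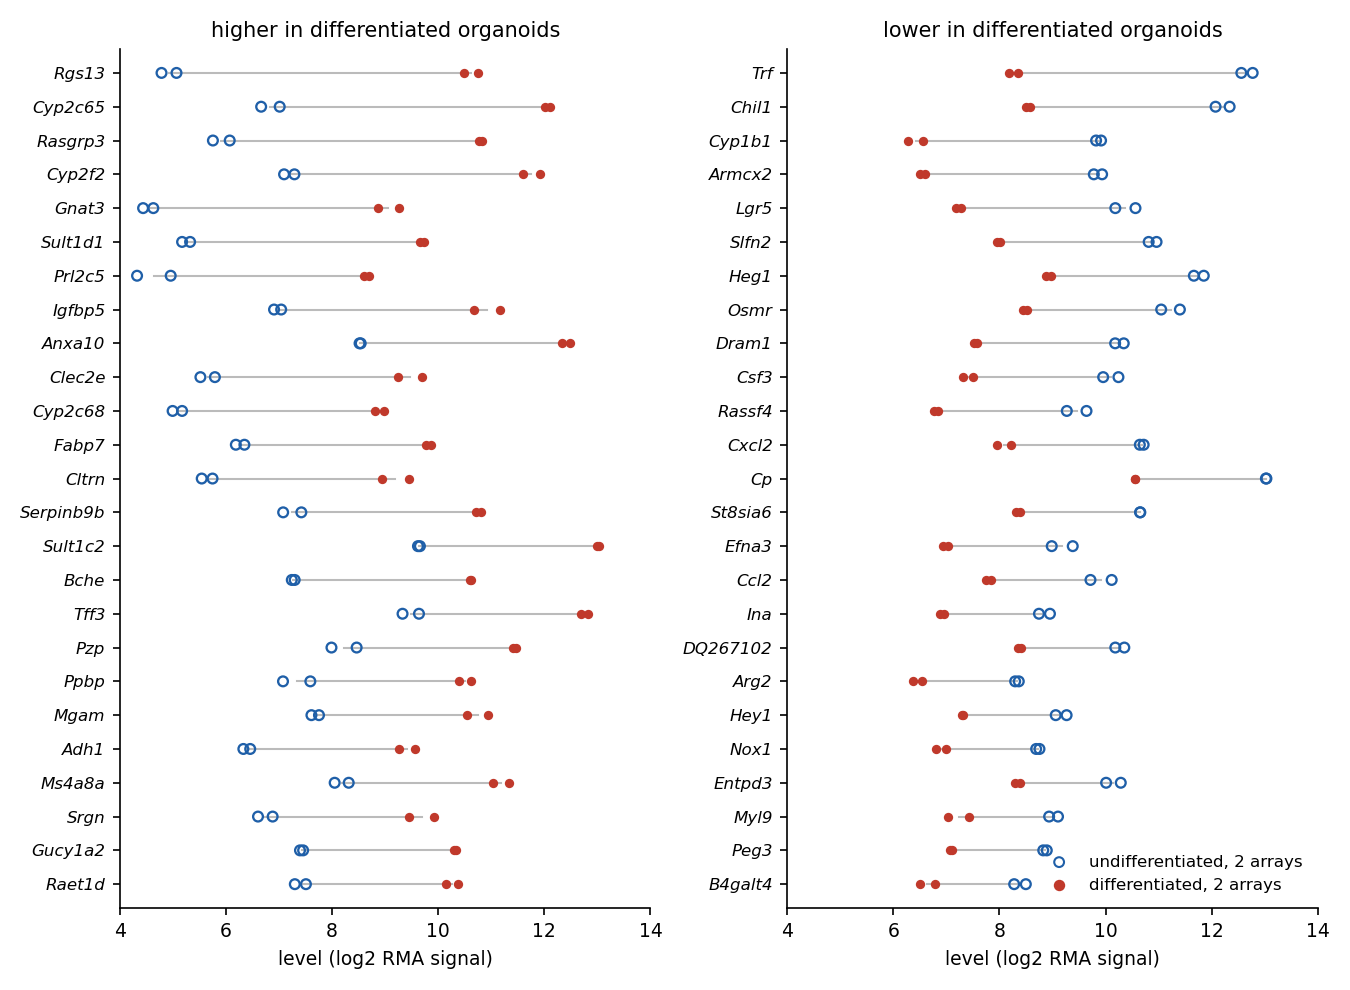
Level on each of the 4 arrays (log2 RMA signal) of the 25 genes in each direction with the largest differences among calls that held. Filled red points are differentiated arrays, open blue points undifferentiated arrays and grey lines join the group means. The genes were chosen to have arrays that do not overlap between the compared groups, so the separation shown follows from the choice.

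The first question is what happened to Wnt signalling, whose amplifier R-spondin 1 was removed. Lgr5, an R-spondin receptor and marker of cycling stem cells, read 10.56 and 10.18 on the undifferentiated arrays and 7.28 and 7.17 on the differentiated arrays. The arrays did not overlap, which was so for 66.6% of all genes, and Lgr5 fell by 3.15 ± 0.40 (adjusted p = 0.00142), a call that held. Its relatives were not called. Lgr4 read 11.24 and 11.32 after withdrawal and 10.999 and 10.94 before it (difference 0.30 ± 0.29, adjusted p = 0.699), and Lgr6, dim throughout, differed by 0.00. Neither ubiquitin ligase was called, with differences of -0.72 ± 0.24 for Rnf43 (adjusted p = 0.146) and -0.07 ± 0.12 for Znrf3 (adjusted p = 0.874). Of the 9 genes of R-spondins, their receptors and ligases, Lgr5 was the 1 called (11.1%, against 1.93% of all genes called lower).

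Targets switched on by beta-catenin fell in 2 of 16 cases (12.5%, against 1.93% of all genes), Lgr5 and Axin2, and the median of the list was -0.12. Axin2, a feedback brake that most Wnt-responsive cells induce, went from 8.55 and 8.41 to 7.98 and 7.74. It fell by 0.62 ± 0.10 (adjusted p = 0.00754), and the adjusted p was 0.0954 without differentiated replicate 2 and 0.0981 without undifferentiated replicate 1. Sp5 (-0.44), Notum (-0.22), Nkd1 (-0.17) and Ascl2 (0.19) were not called. Among 15 intestinal stem cell genes, Lgr5, Axin2 and Lrig1, a restrainer of ErbB receptors, fell (20%, against 1.93%). Lrig1 fell by 0.75 (adjusted p = 0.131 to 0.28 with 1 array left out), so that 2, 1, 1 and 2 stem cell genes fell with each array left out.

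Of 34 Wnt ligands and receptors 2 rose (5.88%, against 2.8% of all genes) and 1 fell (2.94%, against 1.93%). The receptor Fzd7 rose from 9.74 and 9.51 to 10.84 and 10.80 and the ligand Wnt4 from 8.43 and 8.71 to 9.47 and 9.29, by 1.20 ± 0.25 and 0.81 ± 0.16. Wnt7b, the ligand with arrays at 11.03 and 11.08 before withdrawal, fell by 0.52 to 10.64 and 10.42. Of these 3 calls only that of Wnt4 was kept with an array left out, and only without undifferentiated replicate 2. The other adjusted p-values were 0.0981 to 0.182 for Fzd7, 0.0793 to 0.31 for Wnt7b and 0.161 without differentiated replicate 1, 0.0753 without differentiated replicate 2 and 0.18 without undifferentiated replicate 1 for Wnt4. None of 17 secreted Wnt modulators was called, with 0 higher and 2 lower at an unadjusted p under 0.05.

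Noggin withdrawal leaves BMPs free to act, and the Id genes and inhibitory Smads are their usual readout. Id1 read 10.57 and 10.57 after and 10.92 and 10.60 before withdrawal, and Id2 13.30 and 13.33 and 13.40 and 13.35. Both were bright in both groups, with differences of -0.19 ± 0.29 and -0.06 ± 0.12 that were not called. Id3 differed by 0.63 ± 0.33 (adjusted p = 0.398), Smad6 by -0.05 and Smad7 by 0.14, also without a call. Of 12 BMP targets 1 was called, and it fell (8.33%, against 1.93% of all genes). This was Hey1, a transcriptional repressor that Notch also induces, which fell from 9.27 and 9.06 to 7.30 and 7.31, by 1.86 ± 0.16 (adjusted p = 0.000125). Among 24 BMP ligands, receptors and antagonists 2 rose (8.33%, against 2.8% of all genes). Bmp2, a ligand, rose from 7.31 and 7.16 to 8.45 and 8.47, by 1.23 ± 0.19 (adjusted p = 0.00478, and 0.0516 without differentiated replicate 2 and 0.0579 without undifferentiated replicate 2). Chrdl1, a secreted BMP antagonist, rose from 6.80 and 6.77 to 7.73 and 7.56, by 0.86 ± 0.12 (adjusted p = 0.00201), which held. The organoids' own noggin gene, Nog, read 7.56 and 7.32 and 7.503 and 7.60 and was not called.

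Of 29 genes of nicotinamide and NAD metabolism 1 fell (3.45%, against 1.93%) and 0 rose. This was Bst1, a surface enzyme that consumes NAD, with 10.01 and 8.97 on the undifferentiated arrays, which lay well apart, and 7.81 and 7.96 on the differentiated arrays. It fell by 1.61 ± 0.27 (adjusted p = 0.00815, and 0.0839 without differentiated replicate 1 and 0.0596 without differentiated replicate 2). Nampt, which recycles nicotinamide into NAD, differed by 0.39 ± 0.36 (adjusted p = 0.695) and Nnmt, which methylates nicotinamide, by -0.18 ± 0.54 (adjusted p = 0.938).

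Several chemokine and cytokine genes fell. Of 45 chemokine and cytokine genes, 6 fell (13.3%, against 1.93% of all genes) and 0 rose in the list, and 4, 4, 4 and 4 fell with each array left out. They were the colony stimulating factors Csf1, Csf2 and Csf3, which call up and mature myeloid cells, the neutrophil chemokines Cxcl2 and Cxcl3, and Ccl2, which draws monocytes. Ppbp, the platelet chemokine precursor, which was in no list, went the other way. Cxcl3, Cxcl2 and Ppbp lie close together on chromosome 5. The 250 bases before their annotated starts are shown because these neighbours moved in opposite directions. They are RefSeq sequences of GRCm38.p6 on the plus strand, at chr5:90903649-90903898 for Cxcl2, chr5:90785851-90786100 for Cxcl3 and chr5:90768268-90768517 for Ppbp. Capitals mark GGNNTTTCC, letters of the binding site of NF-kappaB, the transcription factor of inflammatory signals.
Cxcl2: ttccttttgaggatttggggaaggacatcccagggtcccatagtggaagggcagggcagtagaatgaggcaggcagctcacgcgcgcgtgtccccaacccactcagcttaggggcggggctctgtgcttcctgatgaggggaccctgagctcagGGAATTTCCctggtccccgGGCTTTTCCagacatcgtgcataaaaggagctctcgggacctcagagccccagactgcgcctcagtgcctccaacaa
Cxcl3: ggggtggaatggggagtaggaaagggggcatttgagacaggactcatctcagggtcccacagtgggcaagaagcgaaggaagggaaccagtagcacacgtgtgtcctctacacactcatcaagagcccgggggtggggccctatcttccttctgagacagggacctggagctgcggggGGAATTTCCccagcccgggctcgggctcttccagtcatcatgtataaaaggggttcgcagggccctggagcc
Ppbp: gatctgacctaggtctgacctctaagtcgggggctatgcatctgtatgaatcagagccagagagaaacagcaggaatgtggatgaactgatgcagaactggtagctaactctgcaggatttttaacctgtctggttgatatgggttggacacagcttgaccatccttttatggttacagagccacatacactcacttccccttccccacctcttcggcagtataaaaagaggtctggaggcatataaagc
Cxcl2 holds the motif in 2 places and Cxcl3 in 1, and Ppbp holds no match on either strand. Of 32851 mouse promoter windows, 4.93% hold the motif. Among the called genes of the list, 4 had a window in the sequence table, and 3 of these (Cxcl2, Cxcl3 and Csf1) hold it. The share among the uncalled members of the list was not counted, so a tie of the motif to the fall was not tested. A match describes the letters and does not show that the factor binds.

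Cxcl2 read 10.72 and 10.65 on the undifferentiated arrays and 7.96 and 8.22 on the differentiated arrays. It fell by 2.60 ± 0.38 (adjusted p = 0.00329), and its neighbour Cxcl3, much dimmer, fell by 0.77 ± 0.17 from 7.63 and 7.64 to 6.84 and 6.89 (adjusted p = 0.0314, and 0.179 to 0.2 with 1 array left out). Ppbp read 7.07 and 7.59 before and 10.62 and 10.40 after withdrawal, and rose by 3.17 ± 0.29 (adjusted p = 0.000188), a 9.03-fold change. Other chemokine genes of this stretch, named after their values were seen, were not called: Cxcl5 (-0.84), Cxcl15 (0.13), Pf4 (-0.36) and Cxcl1 (-0.82). The granulocyte factor Csf3 read 10.24 and 9.95 and then 7.32 and 7.497, so it fell by 2.69 ± 0.18 (adjusted p = 4.17e-05). Csf1, the macrophage factor, fell by 1.43 ± 0.20 (adjusted p = 0.00261) and Ccl2 by 2.12 ± 0.21 (adjusted p = 0.000306), and both calls held. Csf2 fell by 1.56 (adjusted p = 0.0334, and 0.125 to 0.263 with 1 array left out). Osmr, a receptor for the cytokine oncostatin M, read 11.40 and 11.05 before and 8.44 and 8.51 after, and fell by 2.75 ± 0.27 (adjusted p = 0.000328). None of the 7 immune cell markers measured was called, and their median level lay between 6.30 and 6.998 on the 4 arrays.

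Secreted defence proteins moved in both directions. Of 31 Paneth cell and antimicrobial products 3 fell (9.68%, against 1.93%) and 1 rose (3.23%, against 2.8%), with a median of -0.25. Chil1, a chitinase-like lectin made by inflamed epithelium, read 12.34 and 12.07 before and 8.50 and 8.58 after withdrawal, and fell by 3.67 ± 0.16 (adjusted p = 4.36e-06), a 12.7-fold drop. Slpi, a secreted inhibitor of leukocyte proteases, fell by 1.22 ± 0.17 (adjusted p = 0.00252), and this call also held. Reg3b, a bactericidal lectin, went from 13.46 and 13.40 to 10.11 and 10.16. Reg3b fell by 3.29 ± 0.78 with an adjusted p of 0.0415, and the call ended without any 1 of the 4 arrays. The SE of Reg3b pools the spread of all 7 groups, among them gallbladder tissue at 8.81 and 5.38. Reg4, another member of the same lectin family, rose from 6.33 and 6.40 to 8.55 and 8.67, by 2.24 ± 0.44 (adjusted p = 0.0173, and 0.112 to 0.139 with 1 array left out). Reg genes are similar in sequence, so their signals may be shared. Slfn2, a Schlafen gene induced by interferon, read 10.96 and 10.81 and then 7.96 and 8.01, so it fell by 2.91 ± 0.25 (adjusted p = 0.00015). Of 31 interferon response genes 2 fell (6.45%, against 1.93%) and 0 rose, namely Slfn2 and B2m (-0.40, adjusted p = 0.131 to 0.216 with 1 array left out). Nox1, an epithelial oxidase that makes superoxide, fell by 1.83 ± 0.25 (adjusted p = 0.00216).

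The deepest fall was that of transferrin, the iron carrier of blood, encoded by Trf. It read 12.77 and 12.56 on the undifferentiated arrays and 8.18 and 8.35 after withdrawal. The difference was -4.40 ± 0.23 (adjusted p = 7.43e-06), a 21.1-fold drop. Cp, which encodes the copper-carrying ferroxidase ceruloplasmin, fell from 13.03 and 13.02 to 10.56 and 10.55, by 2.47 ± 0.35 (adjusted p = 0.00257). Atp7b, the pump that loads copper into ceruloplasmin, rose from 7.14 and 7.39 to 9.31 and 9.22, by 2.00 ± 0.16 (adjusted p = 0.000105). Of the 27 iron and copper genes 2 thus fell (7.41%, against 1.93% of all genes) and 1 rose (3.7%, against 2.8%). The other 24 were not called, and the median of the list was 0.00.

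Other genes that fell with calls that held came from varied functions. Cyp1b1, a P450 that hydroxylates oestrogens and polycyclic compounds, read 9.82 and 9.92 before and 6.56 and 6.28 after and fell by 3.45 ± 0.30 (adjusted p = 0.000148). Armcx2 fell by 3.31 ± 0.13, and Heg1, a membrane protein that has a second probe set, by 2.83 ± 0.16 (the other probe set gave -2.41). Dram1, a lysosomal regulator of autophagy, fell by 2.71, and Rassf4, a Ras-association protein, by 2.65. Arg2, the mitochondrial arginase, fell by 1.87. Among cell surface and cytoskeletal proteins, the ephrin Efna3 fell by 2.20, the ectonucleotidase Entpd3 by 1.80, the neuronal filament protein Ina by 1.93 and the myosin light chain Myl9 by 1.79. Myl9 is also a smooth muscle gene. It read 8.94 and 9.10 before and 7.43 and 7.03 after withdrawal, while the median of the smooth muscle markers stayed between 6.89 and 7.03. The galactosyltransferase B4galt4 fell by 1.75.

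Tuft cell genes were the group with the largest share of calls, among lists that were chosen with earlier results of these data known. Of 31 measured, 13 rose (41.9%, against 2.8% of all genes) and 0 fell, the median difference was 0.58, and 6 calls held. In bulk RNA, more tuft cells and more of these transcripts per cell cannot be told apart. Leaving out the arrays in turn left 6, 9, 6 and 7 genes called. Several tuft cell genes are also used by blood cells, so the immune cell list is given here: 0 of its 7 measured markers were called and 2 were higher at an unadjusted p under 0.05. Their median level was 6.85 and 6.998 after withdrawal and 6.30 and 6.62 before it, against 8.12 and 8.49 in gallbladder tissue, and their part in the tuft cell result was not tested.

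The members can be put in the order of the signalling chain. Pou2f3, the transcription factor that specifies tuft cells, read 6.91 and 7.05 before and 8.45 and 8.26 after withdrawal and rose by 1.38 ± 0.14 (adjusted p = 0.000451). Spib and Gfi1b, further transcription factors of the lineage, rose by 1.96 ± 0.27 and 0.53 ± 0.13. Gnat3, the G protein subunit gustducin that couples taste receptors, read 4.44 and 4.63 before, a dim signal, and 9.25 and 8.86 after. It rose by 4.53 ± 0.29 (adjusted p = 2.95e-05). Trpm5, the cation channel that ends the taste cascade, went from 6.81 and 6.33 to 8.80 and 8.62, by 2.14 ± 0.28 (adjusted p = 0.00182). Rgs13, which shortens G protein signals, had the largest difference of all 19938 genes, from 5.07 and 4.78 to 10.75 and 10.48, 5.69 ± 0.35 (adjusted p = 2.16e-05). No fold is given for Rgs13 and Gnat3, since their levels before withdrawal lay close to those in groups where they are dim (Rgs13 in liver tissue 5.03 and 4.84, Gnat3 in small intestine organoids 4.56 and 4.46) and may be at the probes' floor. Dclk1, the kinase most used as a tuft cell marker, rose from 7.46 and 7.40 to 9.78 and 9.51, by 2.22 ± 0.27 (adjusted p = 0.00117). Bmx, a Tec-family tyrosine kinase, rose by 1.70 (adjusted p = 0.0697 to 0.136 with 1 array left out).

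The chain was not raised in all its parts. Plcb2, the phospholipase between gustducin and Trpm5, differed by -0.11, the G protein subunits Gng13 and Gnb3 by -0.49 and 0.02, and the taste receptors Tas1r1 and Tas1r3 by -0.11 and -0.24, none of them called. Il25, the cytokine by which intestinal tuft cells alert lymphocytes, differed by -0.09 and Chat, which makes acetylcholine, by 0.03, also without calls. Avil, Sh2d7, Gfi1b and these uncalled members were named after their values were seen. Avil, an actin-bundling protein of tuft cell villi, rose by 1.35 (adjusted p = 0.00755, and 0.0839 without differentiated replicate 1 and 0.0847 without undifferentiated replicate 1), and Sh2d7, a signalling adaptor, by 1.23 (adjusted p = 0.0489, and 0.171 to 0.31 with 1 array left out). Gfi1b had an adjusted p of 0.0461, and 0.095 to 0.334 with 1 array left out.

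Tuft cells make leukotrienes and prostaglandin D2, and the eicosanoid list shares Alox5, Alox5ap and Hpgds with the tuft cell list. Of 21 measured, 7 rose (33.3%, against 2.8%) and 0 fell, although the median was -0.05, and 2, 4, 2 and 2 passed with each array left out. Alox5, which starts leukotriene synthesis, rose by 1.63 ± 0.26, its partner Alox5ap by 1.58 ± 0.32 and Hpgds, the prostaglandin D2 synthase of blood cells and tuft cells, by 1.53 ± 0.25. The adjusted p of Alox5ap was 0.0811 to 0.168 with 1 array left out, that of Alox5 0.0691 without differentiated replicate 1, 0.065 without undifferentiated replicate 1 and 0.0514 without undifferentiated replicate 2, and that of Hpgds 0.0691 without differentiated replicate 1, 0.0535 without undifferentiated replicate 1 and 0.0621 without undifferentiated replicate 2. Enzymes that inactivate prostaglandins rose as well, with calls that held. Hpgd, the first of them, went from 7.63 and 7.24 to 9.58 and 9.49, by 2.10 ± 0.29 (adjusted p = 0.00215), and Ptgr1 from 9.36 and 9.52 to 11.11 and 10.99, by 1.61 ± 0.20 (adjusted p = 0.0014). Alox12 and Ptgds, each dim or moderate, rose by 0.73 and 0.59 (adjusted p = 0.153 to 0.255 and 0.101 to 0.186 with 1 array left out).

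Trefoil factors, small peptides secreted with mucus, rose together. The 3 genes lie side by side on chromosome 17. Tff3, the trefoil of goblet cells, read 9.33 and 9.64 before and 12.83 and 12.69 after withdrawal and rose by 3.28 ± 0.36 (adjusted p = 0.000612), a call that held. Tff2, the trefoil of gastric mucous neck cells, went from 7.72 and 7.89 to 12.09 and 11.999, by 4.24 ± 0.92 (adjusted p = 0.0281). Tff1, from the gastric pit, went from 9.51 and 9.70 to 10.56 and 10.66, by 1.00 ± 0.19 (adjusted p = 0.0124). The calls of Tff2 and Tff1 ended in leave-out fits (0.156 to 0.183 for Tff2 and 0.0615 to 0.13 for Tff1), and the SE of Tff2 pools the spread of all 7 groups. With Anxa10, an annexin of gastric epithelium, and Psca (0.74), 4 of 23 trefoil and gastric-type genes rose (17.4%, against 2.8%) and 1, 1, 1 and 1 passed with each array left out. Anxa10 read 8.52 and 8.54 before and 12.49 and 12.34 after, a rise of 3.89 ± 0.24 (adjusted p = 2.16e-05) that held. The gel-forming gastric mucin Muc5ac fell by 0.52 ± 0.12 (adjusted p = 0.0348, and 0.0824 to 0.304 with 1 array left out). The median of the gastric list was -0.01, so the rises were those of few members.

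Few genes of goblet and enteroendocrine cells were called. Among 20 goblet cell and secretory genes, Tff3 and Clca1, a protein secreted with mucus, rose (10%, against 2.8%), Tspan13 fell by 0.64 (adjusted p = 0.0653 to 0.295 with 1 array left out), and the median was -0.10. Clca1 went from 6.92 and 6.89 to 8.75 and 8.71, by 1.82 ± 0.21 (adjusted p = 0.000712). Muc2, the goblet cell mucin, was dim in both groups (6.59 and 6.51 after, 6.86 and 6.84 before, adjusted p = 0.701). Of 21 enteroendocrine genes limma called 0, with 1 higher and 0 lower at an unadjusted p under 0.05, and Chga read 7.42 and 7.12 and 7.57 and 7.64. Among 72 glycosyltransferases that build mucin-type and terminal sugars, 5 rose (6.94%, against 2.8%) and 2 fell (2.78%, against 1.93%). B4galnt2, which completes the Sd(a) antigen, rose by 1.62 ± 0.13 (adjusted p = 0.000106) and Gcnt3, a branching enzyme of mucin cores, by 1.45 ± 0.17 (adjusted p = 0.000884). St8sia6, a sialyltransferase, read 10.65 and 10.66 before and 8.32 and 8.39 after, and fell by 2.30 ± 0.16 (adjusted p = 4.2e-05), and B4galnt4 fell by 0.92. These 4 calls held. Fut4 (1.04, adjusted p = 0.056 to 0.0766 with 1 array left out), St6galnac2 (0.87, 0.122 to 0.161) and Galnt4 (0.47, 0.134 without differentiated replicate 1, 0.11 without differentiated replicate 2 and 0.175 without undifferentiated replicate 1) also rose.

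**Figure D3:**
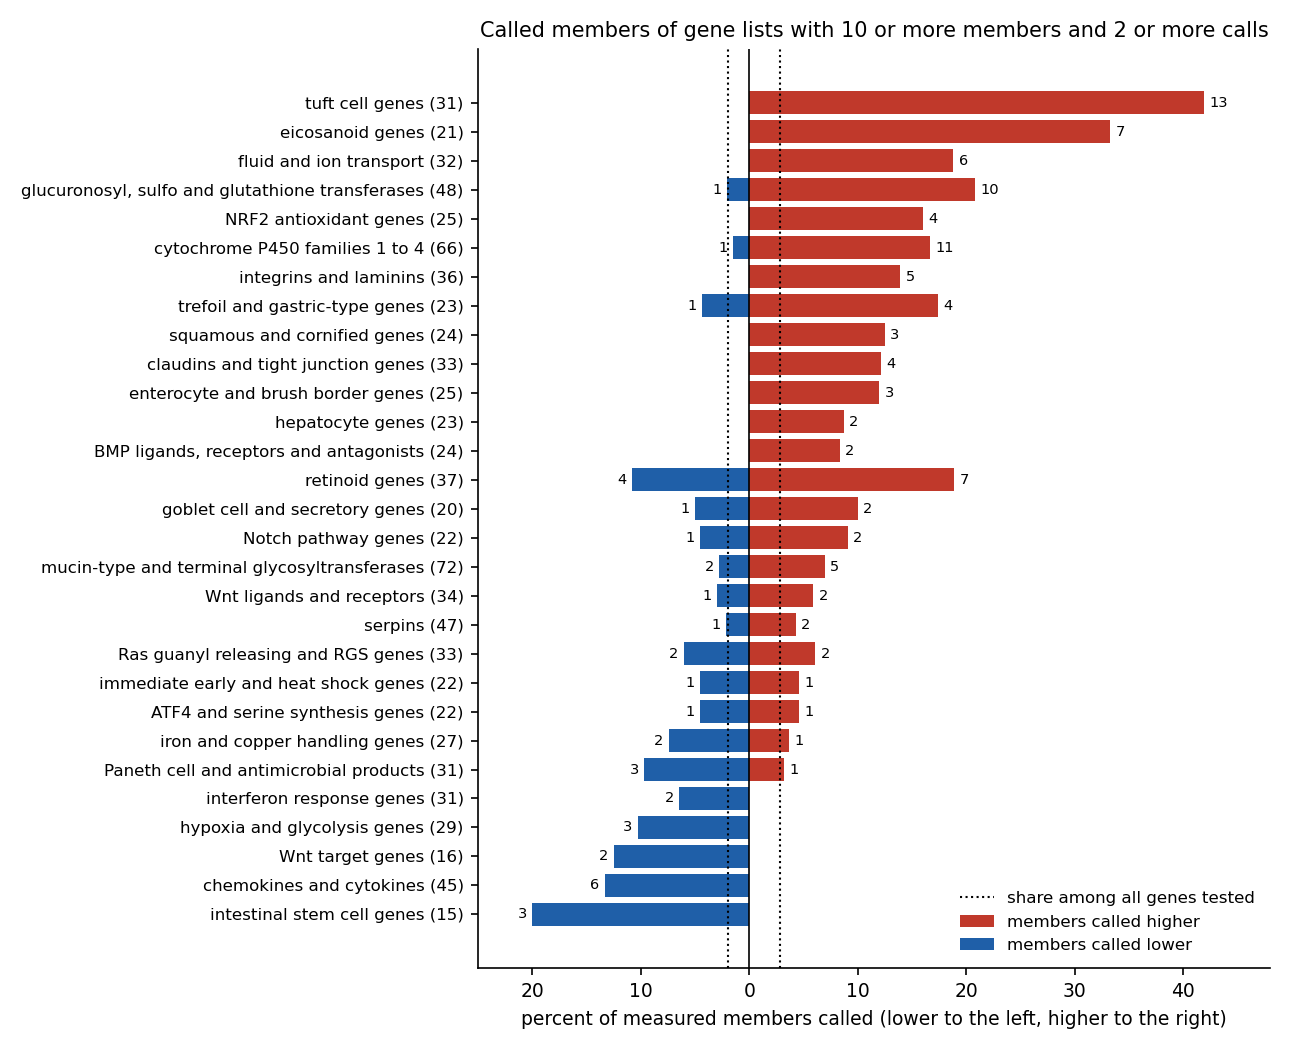
Share of the measured members of each gene list that was called lower (blue, left) or higher (red, right), in percent, for lists with 10 or more members and 2 or more calls; the number measured is in brackets and the number called at the end of each bar. Dotted lines mark the shares among all 19938 genes (1.93% lower, 2.8% higher), and the tuft cell list reaches furthest, with 41.9%. The lists were chosen with earlier results of these data known, so the shares are descriptive.

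Hnf4g, which encodes a nuclear receptor of intestinal and other epithelia, was dim before withdrawal (5.65 and 5.85) and read 8.46 and 8.52 after it. It rose by 2.73 ± 0.21 (adjusted p = 7.81e-05), and was the only 1 called of 27 biliary and foregut transcription factors (3.7%, against 2.8% of all genes). Among genes of mature enterocytes, 3 of 25 rose (12%, against 2.8%) and 0 fell, and all 3 calls held. Mgam, the brush border enzyme that splits maltose, went from 7.75 and 7.61 to 10.95 and 10.55, by 3.06 ± 0.15 (adjusted p = 4.64e-06). Myo1a, a motor of microvilli, rose by 1.95 ± 0.28 (adjusted p = 0.00286) and Cdhr2, a cadherin that links microvillus tips, by 1.92 ± 0.14 (adjusted p = 7.33e-05). Of 23 hepatocyte genes, 2 rose (8.7%, against 2.8%), Ttr and Apob. Ttr, the thyroxine carrier transthyretin, went from 10.15 and 10.45 to 12.52 and 12.47, by 2.20 ± 0.19 (adjusted p = 0.000133), and Apob, the core protein of chylomicrons and other lipoproteins, from 6.23 and 6.58 to 8.96 and 8.91, by 2.54 ± 0.56 (adjusted p = 0.0306, and 0.136 to 0.22 with 1 array left out). Alb differed by 0.12 ± 0.44 (adjusted p = 0.952), and the other 20 genes of the list were not called either.

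Cytochrome P450 genes of families 1 to 4, oxidases of drugs, steroids and fatty acids, rose in 11 of 66 cases (16.7%, against 2.8%) and fell in 1 (1.52%, against 1.93%). The largest rises were in family 2. Cyp2c65, Cyp2c67 and Cyp2c68 lie in a cluster on chromosome 19, and the 250 bases before their starts are shown because all 3 rose and share a motif. Capitals mark CAAAGTCCA, letters of a binding site specific to HNF4 receptors, which was searched on both strands. The sequences are from RefSeq, GRCm38.p6, at chr19:39060756-39061005 on the plus strand, chr19:39649043-39649292 on the minus strand and chr19:39741102-39741351 on the minus strand, each written 5′ to 3′ towards its gene.
Cyp2c65: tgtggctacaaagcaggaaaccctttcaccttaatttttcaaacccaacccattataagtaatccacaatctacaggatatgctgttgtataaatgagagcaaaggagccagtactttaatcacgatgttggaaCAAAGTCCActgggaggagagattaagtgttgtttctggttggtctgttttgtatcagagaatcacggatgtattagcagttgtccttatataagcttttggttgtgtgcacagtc
Cyp2c67: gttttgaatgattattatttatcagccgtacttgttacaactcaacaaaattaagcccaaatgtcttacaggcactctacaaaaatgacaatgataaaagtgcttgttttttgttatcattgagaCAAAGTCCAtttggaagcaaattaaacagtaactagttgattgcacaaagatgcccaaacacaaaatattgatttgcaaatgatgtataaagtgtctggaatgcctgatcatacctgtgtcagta
Cyp2c68: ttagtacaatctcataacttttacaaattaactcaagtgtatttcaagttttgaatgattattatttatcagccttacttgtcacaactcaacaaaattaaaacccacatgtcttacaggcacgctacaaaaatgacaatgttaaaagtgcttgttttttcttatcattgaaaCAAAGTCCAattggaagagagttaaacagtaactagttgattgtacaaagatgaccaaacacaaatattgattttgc
The motif is in 0.384% of 32851 promoter windows, and in 1 of the 8 other Cyp2c genes that were measured, had a window and were not called (Cyp2c70). Counted back from the annotated start as -1, it begins at position -116 in Cyp2c65, -125 in Cyp2c67 and -77 in Cyp2c68. The windows of Cyp2c67 and Cyp2c68 are nearly alike over a long stretch that holds the motif, so their matches are not separate occurrences. Both motifs shown were chosen after the values were seen, from 13 searched.

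Cyp2c65 read 6.66 and 7.01 before and 12.11 and 12.01 after withdrawal, a rise of 5.22 ± 0.38 (adjusted p = 5.67e-05) or 37.4-fold. Cyp2c68 rose from 5.17 and 4.99 to 8.81 and 8.97, by 3.81 ± 0.24 (adjusted p = 2.28e-05), and Cyp2c67 from 4.14 and 4.09 to 6.68 and 6.51, by 2.48 ± 0.43 (adjusted p = 0.00845, and 0.0651 to 0.0837 with 1 array left out). Cyp2c66, next to Cyp2c65, read 6.90 and 6.98 before and 7.22 and 7.24 after, and Cyp2c29 differed by 0.29. Neither was called, and both were named after their values were seen. Cyp2c genes are close in sequence and their probes may be shared, so the share of Cyp2c67 and of Cyp2c68 in these signals is uncertain. Cyp2f2, a P450 of airway club cells and liver, went from 7.09 and 7.29 to 11.92 and 11.59, by 4.56 ± 0.24 (adjusted p = 7.43e-06). The neighbouring arachidonic acid oxidases Cyp2j5 and Cyp2j9 rose by 2.19 ± 0.51 and 1.71 ± 0.28, and Cyp3a13 by 1.71 ± 0.29. With 1 array left out, the adjusted p was 0.187 to 0.244 for Cyp2j5, 0.0634 without differentiated replicate 1, 0.067 without differentiated replicate 2 and 0.0877 without undifferentiated replicate 1 for Cyp2j9 and 0.0645 to 0.0778 for Cyp3a13. In all, 3, 3, 4 and 4 P450 genes rose with each array left out.

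Enzymes that attach sulfate, glucuronic acid or glutathione rose in 10 of 48 cases (20.8%, against 2.8%) and fell in 1 (2.08%, against 1.93%), with a median of 0.32. The sulfotransferases led. Sult1d1 read 5.17 and 5.32 before and 9.73 and 9.66 after, and rose by 4.45 ± 0.47 (adjusted p = 0.000473). Sult1c2 rose from 9.62 and 9.65 to 13.00 and 13.03, by 3.38 ± 0.43 (adjusted p = 0.00137). Ugt2a3, a glucuronosyltransferase, rose by 2.56 ± 0.29 (adjusted p = 0.000712). Sult1b1, Sult1d1 and Ugt2a3 lie close together on chromosome 5. Sult1b1 rose by 2.26 ± 0.47, Gstm1 by 1.19 ± 0.21, Mgst2 by 1.17 ± 0.25 and Mgst3 by 1.13 ± 0.23, and Gstm5 fell by 1.63 ± 0.27. Those 5 calls ended in leave-out fits (adjusted p = 0.115 to 0.168 for Sult1b1, 0.0808 to 0.0967 for Gstm1, 0.147 to 0.197 for Mgst2, 0.114 to 0.147 for Mgst3 and 0.0808 without differentiated replicate 1 and 0.0812 without undifferentiated replicate 1 for Gstm5), and 4, 5, 4 and 4 members of the list rose with each array left out. Nr1i2, the xenobiotic receptor PXR that controls many such enzymes, read 6.96 and 6.79 before and 8.45 and 8.48 after. It rose by 1.59 ± 0.10 (adjusted p = 2.16e-05), the only 1 called of 43 nuclear receptors (2.33%, against 2.8%) listed apart from Hnf4g, which was in another list. Differences in the list of 43 ran from -0.94 to 2.32, so the largest was not called.

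Retinoid genes moved both ways. Of 37 measured, 7 rose (18.9%, against 2.8%) and 4 fell (10.8%, against 1.93%). Most of the called enzymes of retinoid conversion rose. Adh1, a retinol and alcohol dehydrogenase, went from 6.46 and 6.33 to 9.56 and 9.27, by 3.02 ± 0.36 (adjusted p = 0.00106), and Aldh1a1, a retinal dehydrogenase, from 8.65 and 8.33 to 11.18 and 11.03, by 2.62 ± 0.26 (adjusted p = 0.000365). Aldh1a7, next to Aldh1a1 and close to it in sequence, rose by 2.03 ± 0.34, Bco2, which cleaves carotenoids, by 2.00 ± 0.30, and Rbp7, a cellular retinol binder, by 1.54 ± 0.20 (adjusted p = 0.00149). Aldh1a2, a further retinal dehydrogenase, went against the other enzymes and fell by 1.56 ± 0.24. The carrier and its receptor fell, Rbp4, the retinol carrier of blood, from 9.35 and 9.27 to 6.73 and 6.92, by 2.48 ± 0.44, and Stra6, its receptor, from 12.08 and 11.99 to 10.54 and 10.36, by 1.59 ± 0.14 (adjusted p = 0.000175). The adjusted p was 0.0724 to 0.0959 for Rbp4 with 1 array left out, 0.0628 without differentiated replicate 1 and 0.0518 without undifferentiated replicate 2 for Aldh1a2, 0.0785 without differentiated replicate 1 and 0.08 without undifferentiated replicate 1 for Aldh1a7 and 0.052 without differentiated replicate 2 for Bco2. The list had 4, 5, 5 and 5 higher and 1, 2, 2 and 1 lower members with each array left out.

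The gallbladder epithelium takes up sodium chloride and lets water follow. Of 32 genes of fluid and ion transport 6 rose (18.8%, against 2.8%) and 0 fell, with a median of 0.01, and 4 of the calls held. Slc9a4 and Slc9a2, sodium-proton exchangers that are neighbours on chromosome 1, went from 7.44 and 7.28 to 9.63 and 9.496 and from 7.52 and 7.58 to 8.97 and 8.86. They rose by 2.20 ± 0.26 (adjusted p = 0.00103) and 1.37 ± 0.17 (adjusted p = 0.00147). Slc26a3, a chloride-bicarbonate exchanger of absorptive epithelia, rose from 5.31 and 5.13 to 6.93 and 6.54, by 1.52 ± 0.17 (adjusted p = 0.000639). The anion exchanger Slc4a2 rose by 0.56 and the potassium-chloride carrier Slc12a7 by 0.43 (adjusted p = 0.0549 to 0.0963 and 0.192 to 0.318 with 1 array left out). Cftr, the chloride channel of secretion, read 8.45 and 8.35 after and 9.02 and 8.89 before withdrawal and was not called (-0.56 ± 0.21, adjusted p = 0.203). Aqp1, the water channel of bile duct epithelium, rose from 8.38 and 8.25 to 10.36 and 10.53, by 2.13 ± 0.35 (adjusted p = 0.00667, and 0.0518 to 0.0712 with 1 array left out). It was the 1 called of 11 aquaporins (9.09%, against 2.8%), and the other 10 were not. Of 16 carbonic anhydrases and 25 genes of bile acid synthesis and transport limma called 0. At an unadjusted p under 0.05, 1 carbonic anhydrase was higher and 1 lower, and 2 bile acid genes were higher. Differences of the bile acid genes ran from -0.71 to 2.32, so a large difference was present without a call.

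Markers of biliary identity were bright in both groups and mostly not called. Krt19 read 13.68 and 13.68 after and 13.35 and 13.43 before, Krt7 13.29 and 13.21 and 12.87 and 12.89, and Sox17, the transcription factor that sets gallbladder apart from liver, 10.05 and 10.27 and 10.004 and 9.95. Their differences of 0.29 ± 0.12, 0.38 ± 0.22 and 0.18 ± 0.18 did not pass (adjusted p = 0.253, 0.459 and 0.729). Sox9, a biliary and progenitor factor that Wnt also controls, read 11.39 and 11.26 and 12.07 and 12.002 (-0.71 ± 0.22, adjusted p = 0.117), and Epcam 12.41 and 12.34 and 12.65 and 12.54. Of 13 bile duct markers 1 rose (7.69%, against 2.8% of all genes). It was Jag1, a Notch ligand, which rose by 0.85 ± 0.15 (adjusted p = 0.00922, and 0.0959 without differentiated replicate 1, 0.067 without differentiated replicate 2 and 0.103 without undifferentiated replicate 2). Of 13 biliary cilium genes 1 also rose (7.69%, against 2.8%). It was Pkhd1, which encodes fibrocystin and rose by 1.23 ± 0.19 (adjusted p = 0.00412, and 0.0553 without undifferentiated replicate 2). In the Notch list of 22, Jag1 and Notch4 (0.52) rose (9.09%, against 2.8% of all genes), and neither call held. Hey1 fell (4.55%, against 1.93%), a call that held.

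Junction and stratified-epithelium genes rose in small numbers. Of 24 squamous genes 3 rose (12.5%, against 2.8%) and 0 fell, and the calls held. Dsg3, a desmosomal cadherin of squamous epithelium, went from 6.63 and 6.69 to 9.32 and 9.01, by 2.50 ± 0.13 (adjusted p = 7.43e-06). Krt4, a keratin of mucosal squamous layers, went from 6.71 and 6.62 to 8.77 and 8.90, by 2.17 ± 0.23 (adjusted p = 0.000484), and was the only 1 called of 52 keratins (1.92%, against 2.8%). Klk6, a secreted protease, rose by 0.92 ± 0.11 (adjusted p = 0.000896). Of 33 claudin and tight junction genes 4 rose (12.1%, against 2.8%), and 1, 1, 1 and 1 did with each array left out. Cldn6, a claudin of early epithelia, rose from 8.98 and 8.93 to 10.48 and 10.57, by 1.57 ± 0.18 (adjusted p = 0.000745), which held. Jam2 rose by 1.00, Tjp3 by 0.91 and Cldn23 by 0.67 (adjusted p = 0.175 to 0.222, 0.197 to 0.226 and 0.108 to 0.262 with 1 array left out). Of 36 integrins and laminins 5 rose (13.9%, against 2.8%), the laminin chains Lama3 (1.20), Lamc1 (0.82) and Lamb1 (0.72) and the integrins Itga5 (0.97) and Itgb6 (0.86). With each array left out 0, 0, 0 and 0 of them were called, at adjusted p-values of 0.0519 to 0.165, 0.168 to 0.307, 0.129 to 0.182, 0.0825 to 0.0982 and 0.139 to 0.308 in that order. Among 47 serpins 2 rose (4.26%, against 2.8%) and 1 fell (2.13%, against 1.93%). Serpinb9b and Serpinb2 (0.89) rose with calls that held and Serpinb11 fell by 1.08 (adjusted p = 0.0536 without differentiated replicate 2 and 0.062 without undifferentiated replicate 1).

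The share of cell cycle genes called higher lay near that of all genes. Mki67, a protein of cycling cells, read 9.76 and 9.86 after and 9.13 and 9.21 before withdrawal, a difference of 0.64 ± 0.22 that was not called (adjusted p = 0.165). Of 42 cell cycle genes 1 rose (2.38%, against 2.8%) and 0 fell, with a median of 0.14. It was Pole, the catalytic subunit of a replicative DNA polymerase, which rose by 0.64 ± 0.09 (adjusted p = 0.00304). At an unadjusted p under 0.05, 9 of the 42 were higher and 1 lower, against 3311 of all 19938 genes in either direction. A fit to only the 8 organoid arrays, which called 4582 of all genes (52.1% of them higher), called 12 of the 42 higher and 1 lower. Most differences that leaned upward thus did not pass in the reported fit. Of 13 cell cycle inhibitors limma called 0, with 0 higher and 2 lower at an unadjusted p under 0.05.

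Among stress and metabolic lists, hypoxia and glycolysis genes fell in 3 of 29 cases (10.3%, against 1.93%) and the median was -0.26. Bnip3, a mitochondrial receptor of autophagy induced by low oxygen, fell by 2.60 ± 0.45 from 11.42 and 10.93 to 8.14 and 8.998. P4ha1 and P4ha2, prolyl hydroxylases that mature collagen, fell by 1.59 and 0.95. Leaving out the arrays in turn left 0, 1, 0 and 3 called, with adjusted p = 0.102 without differentiated replicate 1 and 0.1 without undifferentiated replicate 1 for Bnip3, 0.0649 without differentiated replicate 1, 0.0596 without differentiated replicate 2 and 0.0777 without undifferentiated replicate 1 for P4ha1 and 0.0678 without differentiated replicate 1, 0.0723 without differentiated replicate 2 and 0.0941 without undifferentiated replicate 1 for P4ha2. NRF2 antioxidant genes rose in 4 of 25 cases (16%, against 2.8%), with a median of 0.31, and 1, 1, 1 and 1 rose with each array left out. Slc7a11, the cystine importer, rose from 10.40 and 10.40 to 11.77 and 11.79, by 1.38 ± 0.20 (adjusted p = 0.0032), which held. Nqo1, Gstm1 and Gclc, the rate-limiting enzyme of glutathione synthesis, rose by 1.22, 1.19 and 1.103, with adjusted p = 0.202 to 0.264 for Nqo1 and 0.159 to 0.172 for Gclc with 1 array left out.

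Smaller numbers were called in further lists. Acot2, a mitochondrial thioesterase, was the 1 of 19 genes of fatty acid oxidation that rose (1.03, adjusted p = 0.114 to 0.246 with 1 array left out). That is 5.26%, against 2.8% of all genes. Vldlr fell by 0.79 among 22 ATF4 genes (adjusted p = 0.056 to 0.0765 with 1 array left out), where Slc7a11 rose. Each was 4.55% of the list, against 1.93% of all genes lower and 2.8% higher. Of 22 immediate early and heat shock genes, Fosl1 rose by 0.99 ± 0.14 (adjusted p = 0.00222) and Egr2 fell by 0.83 (adjusted p = 0.105 to 0.151 with 1 array left out). Each was again 4.55% of its list. Among 33 regulators of Ras and of G protein signals 2 rose (6.06%, against 2.8%) and 2 fell (6.06%, against 1.93%). Rgs16 fell by 2.82 ± 0.55 and Rasal1 by 0.75 (adjusted p = 0.0982 to 0.129 and 0.0656 to 0.188 with 1 array left out), against the rises of Rgs13 and Rasgrp3. S100b, which was listed as a glial marker, rose by 1.03 ± 0.15 from 7.39 and 7.53 to 8.48 and 8.49 (adjusted p = 0.00319). It was 1 of 3 glial and neural markers measured (33.3%, against 2.8%), and the other 2 were not called. In 16 of the 61 lists limma called 0 members, of 188 measured. They included markers of fibroblasts, endothelium, immune cells, acinar cells and adipocytes, genes of cholesterol and fatty acid synthesis, MHC class II genes, YAP targets and genes of secretory stress. With only the 8 organoid arrays in the fit, which called 4582 genes, 12 of the 23 cholesterol and fatty acid genes were called higher and 1 lower (median difference 0.27). The other 15 lists then had at most 4 members called in a direction.

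The levels reached after withdrawal were also set against other groups, in tests that share the differentiated arrays with the comparison above. Of all genes, 7.76% were called between differentiated gallbladder and liver organoids, 30% against small intestine organoids and 42.7% against gallbladder tissue. The gallbladder tissue arrays carried hepatocyte transcripts: the median of 9 hepatocyte markers was 12.79 and 14.02 there, against 14.12 and 14.18 in liver tissue and 6.78 to 6.92 on the 4 organoid arrays. Alb read 14.30 and 14.30 in gallbladder tissue and 14.34 and 14.35 in liver tissue. Their part in the differences from gallbladder tissue was not tested. Rgs13 differed from liver organoids (9.95 and 9.40) by 0.94 ± 0.35 (adjusted p = 0.151) and from small intestine organoids (10.42 and 9.43) by 0.69 ± 0.35 (adjusted p = 0.177), neither called. Gnat3 read 9.03 and 8.43 in liver organoids (0.32 ± 0.29, adjusted p = 0.639) but 4.56 and 4.46 in small intestine organoids (4.55 ± 0.29, adjusted p = 1.84e-06).

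Among the P450 genes, Cyp2c65 read 12.67 and 12.83 in small intestine organoids, 11.83 and 11.08 in gallbladder tissue and 7.72 and 7.70 in liver organoids. After withdrawal it was not called against the first (-0.69 ± 0.38, adjusted p = 0.208) or the second (0.61 ± 0.38, adjusted p = 0.22). Cyp2c68 stayed below both, with differences of -1.55 ± 0.24 (adjusted p = 0.000729) and -1.10 ± 0.24 (adjusted p = 0.00445), and it was bright in liver tissue (12.30 and 12.57), whose hepatocyte transcripts the gallbladder tissue also held. Hnf4g was brighter in small intestine organoids (12.13 and 12.12) than on any other array plotted. Lgr5 after withdrawal lay -1.94 ± 0.40 from liver organoids (adjusted p = 0.0172, and 0.105 and 0.123 without differentiated replicates 1 and 2) and -5.31 ± 0.40 from small intestine organoids (adjusted p = 4.91e-06).

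Other genes were higher after withdrawal than in any group plotted. Cltrn exceeded liver organoids by 3.23 ± 0.16, small intestine organoids by 3.03 ± 0.16 and gallbladder tissue by 4.29 ± 0.16 (adjusted p = 5.21e-06, 5.5e-07 and 7.45e-08). Anxa10 exceeded them by 3.35 ± 0.24, 3.21 ± 0.24 and 2.29 ± 0.24 (adjusted p = 3.89e-05, 4.36e-06 and 4.35e-05). Ppbp, at 6.40 and 6.89 in gallbladder tissue, exceeded the 3 by 3.86 ± 0.29, 4.75 ± 0.29 and 3.86 ± 0.29 (adjusted p = 5.68e-05, 1.13e-06 and 4.97e-06). Cxcl2, though it fell, remained above gallbladder tissue (5.51 and 5.75) by 2.46 ± 0.38 (adjusted p = 0.000581). Trf after withdrawal was below gallbladder tissue (13.27 and 14.02) by a difference of -5.38 ± 0.23 (adjusted p = 1.6e-07). Trf is also a hepatocyte gene and read 14.27 and 14.29 in liver tissue, so its level in gallbladder tissue, with the hepatocyte markers given above, is not that of the lining alone.

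**Figure D4:**
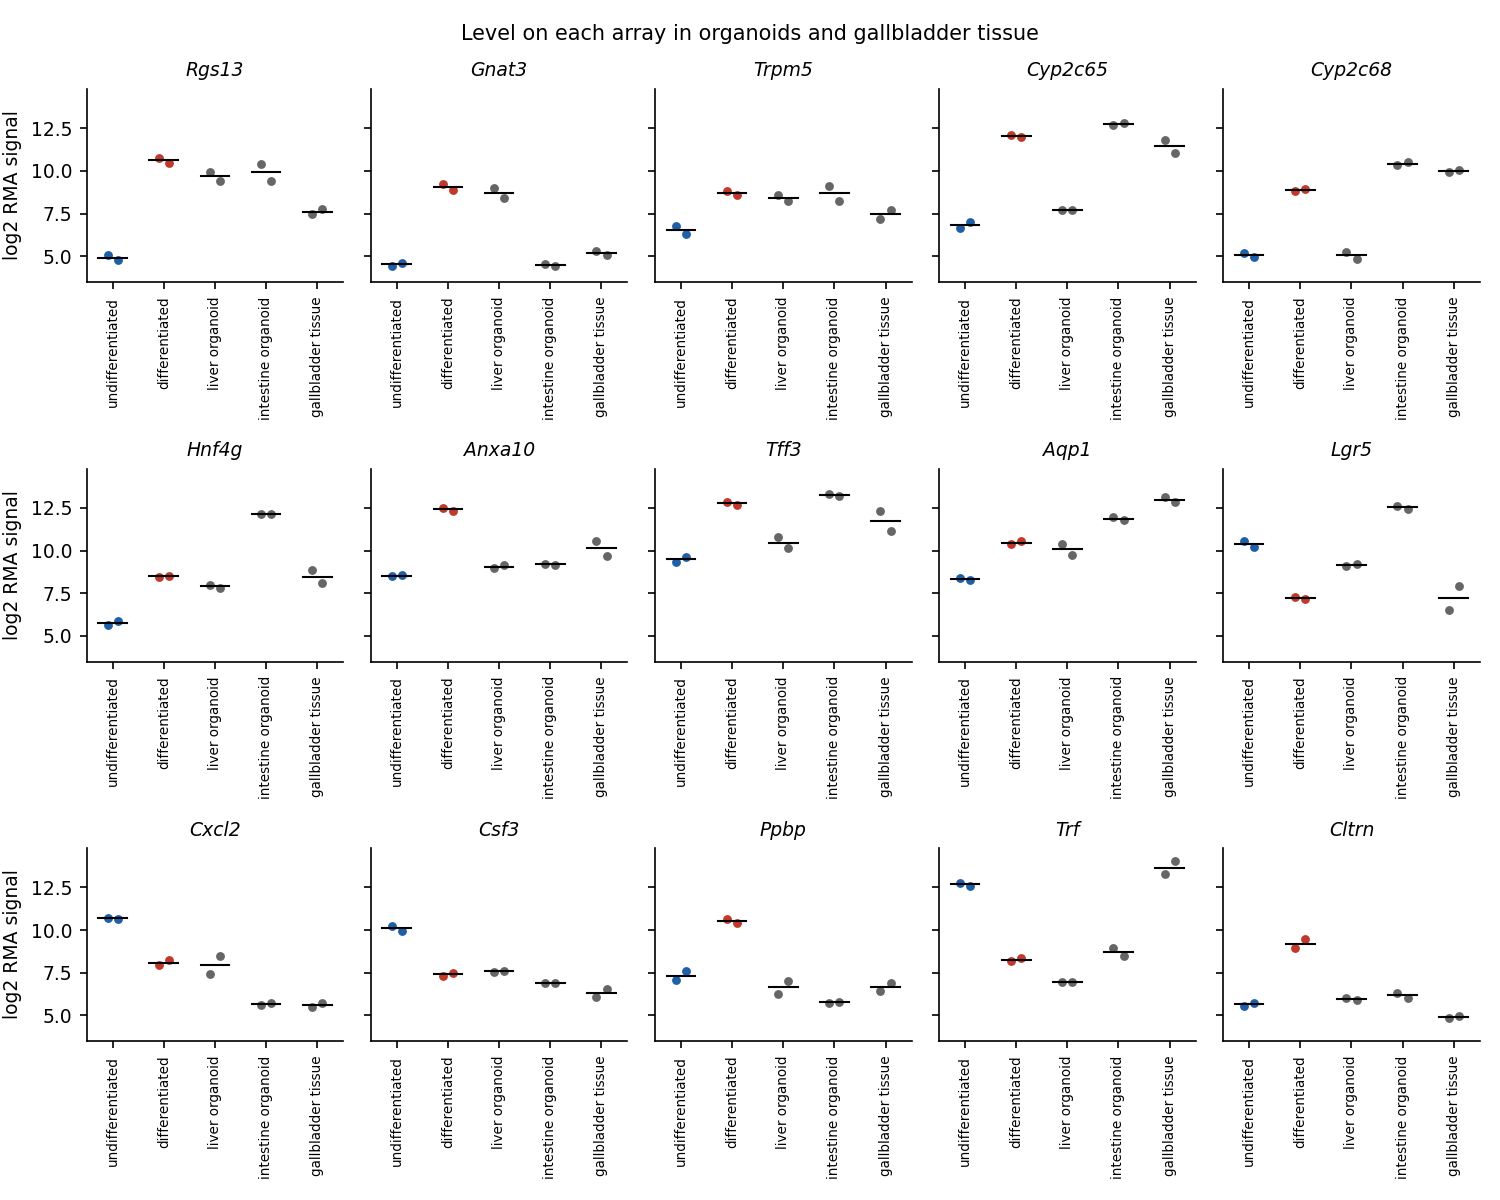
Level on each array (log2 RMA signal, vertical axis) of 15 genes in undifferentiated (blue) and differentiated (red) gallbladder organoids, liver organoids, small intestine organoids and gallbladder tissue (grey), with 2 arrays per group and a bar at their mean. Rgs13 and Trpm5 after withdrawal lie near the other organoids, Cltrn, Anxa10 and Ppbp lie above all other groups shown, and Trf is high in undifferentiated organoids and in gallbladder tissue, which also held hepatocyte markers (median 12.79 and 14.02).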

How the data were processed

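RNA of 14 mouse samples in 7 groups of 2 was labelled with biotin and hybridised to Affymetrix gene arrays. The deposited values are log2 signals, which the authors made with RMA (background correction, quantile normalization and probe summary) per the submitters' processing notes, whose version is not given in the sources used here. They were used as deposited, with precision set by 2 arrays per group. Of 35556 probe sets, 21789 had 1 gene symbol in GEO's platform annotation, 1621 had several and 12146 were not listed, and 21698 were matched to RefSeq by gene ID with 0 symbols changed. For the 999 genes with several probe sets the one with the highest mean was kept, which left 19938 genes.

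Differences were tested with limma 3.58.1 in R 4.3.3 (lmFit with 1 mean per group over all 14 arrays, eBayes, 7 residual degrees of freedom, 9.91 with the prior), with no covariate. With 2 arrays against 2, the smallest p of an exact permutation test is 0.333. On simulated data of this size, 9, 40, 50 and 49 of 50 genes changed by 0.5, 1, 2 and 3 log2 units were called, with 9 false calls. The simulated spread of each gene was its residual spread over all 14 arrays, tissues included. Named genes are the 25 in each direction with the largest differences among calls that held and whose arrays did not overlap between the compared groups. Up to 8 called members of each of 61 gene lists and a set always named were added. Other genes are said to be named after their values were seen. The members and lists were chosen with earlier results of these data known. Same-numbered replicates of the compared groups deviated with r = -0.104 across genes, and nothing in the labels says that a number pairs samples. Motifs were searched on both strands of RefSeq promoter windows of GRCm38.p6. The alternatives were other normalizations, filters, probe set rules, sets of arrays, array weights, a replicate block and leaving out each array. Python 3.11.15, pandas 2.3.3 and matplotlib 3.10.9 were used for tables and plots.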

Additional observations from a re-analysis of the deposited data

How the results depend on the processing

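The count of called genes moved with the arrays in the fit and with their weights. It was 943 over all 14 arrays, 4582 with the 8 organoid arrays (52.1% higher, and all 943 among them), 5353 with the 4 arrays compared (51.0% higher) and 5720 with array weights (48.2% higher, against 59.3% in the reported fit). Requiring a difference of 1 log2 unit or more left 427, and leaving out 1 of the 4 arrays gave 338 to 372. Quantile normalization gave 921, centring on array medians 944, leaving out the dimmest 40% of genes 837, averaging probe sets 950, and an intensity trend with a robust prior 922. With replicate number as a block 888 genes were called, and 910 with the numbers crossed, a pairing chosen after seeing the data. Over the 177 named genes, leaving out 1 array gave the same side of the threshold in 472 fits, lost the call in 230 and turned the sign in 6, and the block lost 4 calls. Signs turned only in genes that were not called: Lgr6 ranged from -0.032 to 0.033, Bambi from -0.039 to 0.057, Nog from -0.231 to 0.015 and Alb from -0.013 to 0.257 with 1 array left out, and Bambi was -0.0038 after quantile normalization. The cause was not tested. In simulated data with 2 arrays per group, 9 of 50 genes changed by 0.5 log2 units were called, so smaller changes could be missed. The simulated spread of each gene was that over all 14 arrays, and tissue arrays varied more than the 4 compared. The share missed among those 4 may therefore differ.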

Other observations

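Further groups of genes were noticed only after the values were seen, so they are given as values with no test of the group. In the imprinted Dlk1-Dio3 region of chromosome 12, 48 genes were measured, of which 6 fell (12.5%, against 1.93% of all genes) and 0 rose, with a median of -0.17. Maternally expressed Meg3, a long noncoding RNA, fell by 1.15 ± 0.20 from 8.83 and 8.40 to 7.36 and 7.56, and Dlk1, the paternally expressed Notch-like protein beside it, by 0.81 ± 0.17 from 8.97 and 8.88 to 8.20 and 8.03. The transcript DQ267102 fell by 1.90 ± 0.16 (adjusted p = 0.000122) and 3 miRNA genes fell as well (Mir377 -1.50 ± 0.22, Mir300 -0.93 ± 0.16 and Mir485 -0.67 ± 0.10). Rtl1 (-0.19), Dio3 at the other end (-0.23) and Rian (-0.07) were not called. The calls of DQ267102 and Mir377 held without any 1 of the 4 arrays, and the adjusted p was 0.0926 without differentiated replicate 1 and 0.0969 without undifferentiated replicate 1 for Meg3, 0.112 to 0.229 for Dlk1, 0.0972 without differentiated replicate 1 and 0.0879 without undifferentiated replicate 2 for Mir300 and 0.0653 without differentiated replicate 2 and 0.0653 without undifferentiated replicate 2 for Mir485. The array reads longer transcripts, so these values are not levels of mature miRNAs. The mature sequences are given, from RefSeq and GRCm38.p6, for chromosome 12 between 109724318 and 109740574 (plus strand), to show which seeds (bases 2 to 8, in capitals) these precursors encode, and no seed is shared among them.
mmu-miR-377-5p: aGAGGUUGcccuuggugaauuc
mmu-miR-377-3p: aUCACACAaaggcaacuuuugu
mmu-miR-300-5p: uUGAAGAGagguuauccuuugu
mmu-miR-300-3p: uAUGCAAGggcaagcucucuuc
mmu-miR-485-3p: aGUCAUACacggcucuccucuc
Imprinted genes elsewhere moved both ways. Peg3 fell by 1.77 ± 0.17 (adjusted p = 0.000237), Sgce rose by 2.21 ± 0.28 (adjusted p = 0.00149) and Grb10, an adaptor that restrains growth factor receptors, by 1.48 ± 0.21 (adjusted p = 0.00248).

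Pairs of neighbouring genes picked for their values, with no count of pairs that did not move, included the following. Raet1d and H60b, neighbours on chromosome 10 that encode ligands of the activating receptor NKG2D, went from 7.30 and 7.51 to 10.37 and 10.15 and from 5.08 and 5.09 to 7.97 and 7.29, by 2.86 ± 0.30 and 2.55 ± 0.20 (adjusted p = 0.000534 and 8.22e-05). Il1f6 and Il1f9, epithelial interleukins of the IL-36 group on chromosome 2, rose by 1.83 ± 0.20 and 1.32 ± 0.14 (adjusted p = 0.000698 and 0.000542). These 4 calls held. The peptidoglycan-binding Pglyrp4 rose by 1.23 ± 0.22, whereas Pglyrp3 fell by 1.16 ± 0.18 (adjusted p = 0.104 without differentiated replicate 2 and 0.11 without undifferentiated replicate 1 for Pglyrp4 and 0.0517 without differentiated replicate 1 and 0.062 without undifferentiated replicate 1 for Pglyrp3). Timp1, an inhibitor of metalloproteinases, fell by 1.61 ± 0.16 (adjusted p = 0.000306) and Tnfaip2 by 1.03 ± 0.14 (adjusted p = 0.00197).

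Single genes picked for their values included Pik3cg, a kinase subunit known from leukocytes. Pik3cg went from 6.47 and 6.48 to 8.65 and 8.34, by 2.02 ± 0.24 (adjusted p = 0.00104), Laptm5 rose by 2.15 ± 0.27 (adjusted p = 0.00147) and Syk, a tyrosine kinase, by 1.07 ± 0.12 (adjusted p = 0.000606). Ptprc, the pan-leukocyte marker, differed by 0.29 and Cd3e by 0.04, neither called. They are among the 7 immune cell markers measured, whose differences ran from -0.25 to 1.01. Of the 7, limma called 0, and 2 were higher at an unadjusted p under 0.05. With only the 8 organoid arrays in the fit, 2 were called higher. The part of leukocytes in the rises of Pik3cg, Laptm5 and Syk was not tested. Guca2b, which encodes uroguanylin, rose by 2.18 ± 0.24, Hkdc1, a hexokinase of epithelia, by 2.60 ± 0.18, Ddc, the decarboxylase that makes dopamine and serotonin, by 2.57 ± 0.24, and Shh, the hedgehog ligand, by 1.48 ± 0.20 (adjusted p = 0.000612, 4.2e-05, 0.000255 and 0.00193).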
